A study of Mus musculus with 9 samples.

Results

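The transcripts described here encode the killing machinery and natural killer (NK) type surface molecules of cytotoxic lymphocytes. They are the granzymes Gzma, Gzmb, Gzmk and Gzmm, perforin (Prf1), the granule-associated Nkg7 and Ctsw, the lectin-like receptors Klrd1 and Klrk1, and the chemokine Ccl5. These 10 genes were chosen by symbol out of the 24060 genes of the expression table, and all 10 had an entry. RNA-seq was performed on CD8 T cells from 3 transnuclear mouse lines, Rop7-I, Rop7-II and Rop7-III, with 3 biological replicates per line and 9 samples in all. Transnuclear mice are made by transferring the nucleus of a single T cell, so that each line carries 1 endogenously rearranged TCR, here specific for a peptide of the Toxoplasma protein Rop7 on the MHC class I molecule H-2Ld. Each line therefore stands for 1 T cell clone, and effects of the TCR and of other differences between the lines cannot be told apart. The study describes the sequenced cells as homozygous for the TCR chains. All lines were backcrossed to BALB/c, and the labels name no further allele and no exposure to antigen. The age and sex of the mice are not given in the labels. Splenocytes of every line were held overnight in IL-2 at 10 ng per ml, and CD3 and CD8 positive cells that bound the Rop7 tetramer were sorted, with a stated purity of 90 to 95%. Levels are in TPM, estimated reads divided by transcript length and scaled to the same total in every sample, so that genes can be compared with each other. The TPM keep no read counts. The study states only a typical number of reads per sample, so the reads behind each value are not known.

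Cytotoxic CD8 T cells and NK cells kill by releasing granules in which perforin opens the target membrane and granzymes, which are serine proteases, enter the target cell. Naive CD8 T cells store little of this cargo and acquire it after priming, whereas memory and memory-like CD8 T cells keep transcripts such as Ccl5 and receptors such as Klrk1 without fresh stimulation. Klrd1 encodes CD94, which pairs with NKG2 chains on the cell surface, and Klrk1 encodes NKG2D, an activating receptor that signals through an adaptor protein.

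The sorted cells had high levels of the CD8 T cell markers, with Cd3e, Cd8a and Cd8b1 at 606 TPM or more in every sample. Among the NK markers, Ncr1 did not exceed 1.19 TPM and Klrb1c 0.6 TPM in any sample. The highest values of the list were those of Tyrobp, Fcer1g and Fcgr3, which reached 42.82, 32.35 and 12.15 TPM, each in Rop7-II replicate 1. The summed level of 10 NK markers, some of them shared with myeloid cells, was 15.5 to 30.4 TPM in the Rop7-I samples, 13.6 to 92.4 TPM in those of Rop7-II and 9.2 to 15.7 TPM in those of Rop7-III. One library stood apart in its B cell and myeloid markers. Rop7-II replicate 1 had the highest level of 13 of 13 B cell markers, 11 of 12 myeloid markers and 6 of 10 NK markers, and its summed B cell level was 2579 TPM against 156 to 1106 TPM in the other 8 samples. The main differences from Rop7-II are therefore also given without this library. Other libraries differed in such markers too. The summed B cell level was 423 to 1106 TPM in the Rop7-I samples and 156 to 332 TPM in those of Rop7-III. Rop7-I replicate 2 had the highest level of 5 of 5 erythroid markers, summing to 2437 TPM against 480 TPM or less in the other 8 samples. The part of such cells in the differences between clones was not tested. In bulk RNA, a smaller share of expressing cells and less RNA per cell cannot be told apart.

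**Figure D1:**
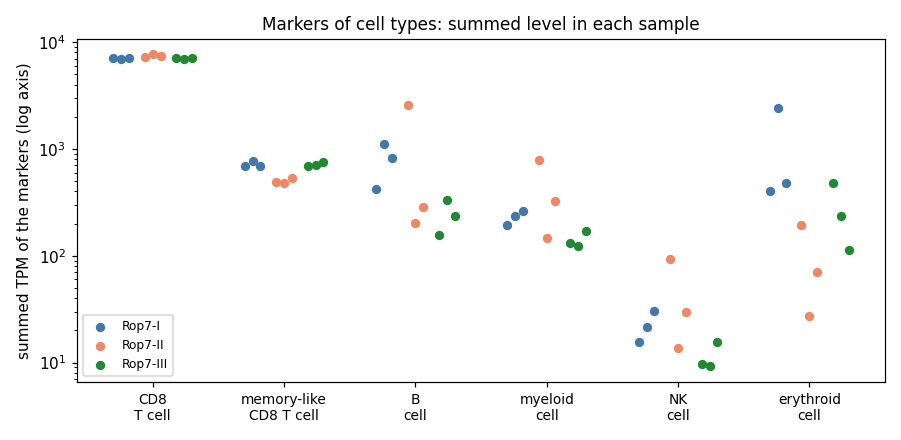
Summed TPM of each list of cell type markers (log axis) for the 9 samples, coloured by clone, with 1 point per sample. CD8 T cell markers sum to 6923 to 7653 TPM in every sample, and the NK list reaches at most 92.4 TPM, in Rop7-II replicate 1.

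The 10 genes fell into a strongly transcribed, an intermediate and a barely detected group. Averaged over the 9 samples, Klrd1 had 268 TPM, a level above that of 97.8% of all genes in the table. Nkg7 followed at 210 TPM and Ctsw at 104 TPM, and these 3 genes made up 88.3% to 92.2% of the summed TPM of the 10 genes. Prf1 averaged 28.3 TPM, Klrk1 14.3 TPM and Ccl5 13.6 TPM. The granzymes were low, with Gzmm at 2.90 TPM, Gzma at 2.12 TPM, Gzmb at 1.15 TPM and Gzmk at 0.04 TPM. Of the 10 genes, 8 were above 0 in all 9 samples, 7 had at least 1 TPM and 4 at least 10 TPM in every sample. The exceptions to detection in every sample were Gzmb, listed at 0 in 1 Rop7-II sample, and Gzmk, which was above 0 in 2 of 9 samples. The study calls these cells unstimulated, and they were held overnight in IL-2. In them perforin had 22.25 TPM or more in every sample, and no granzyme exceeded 5.09 TPM in any.

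**Figure D2:**
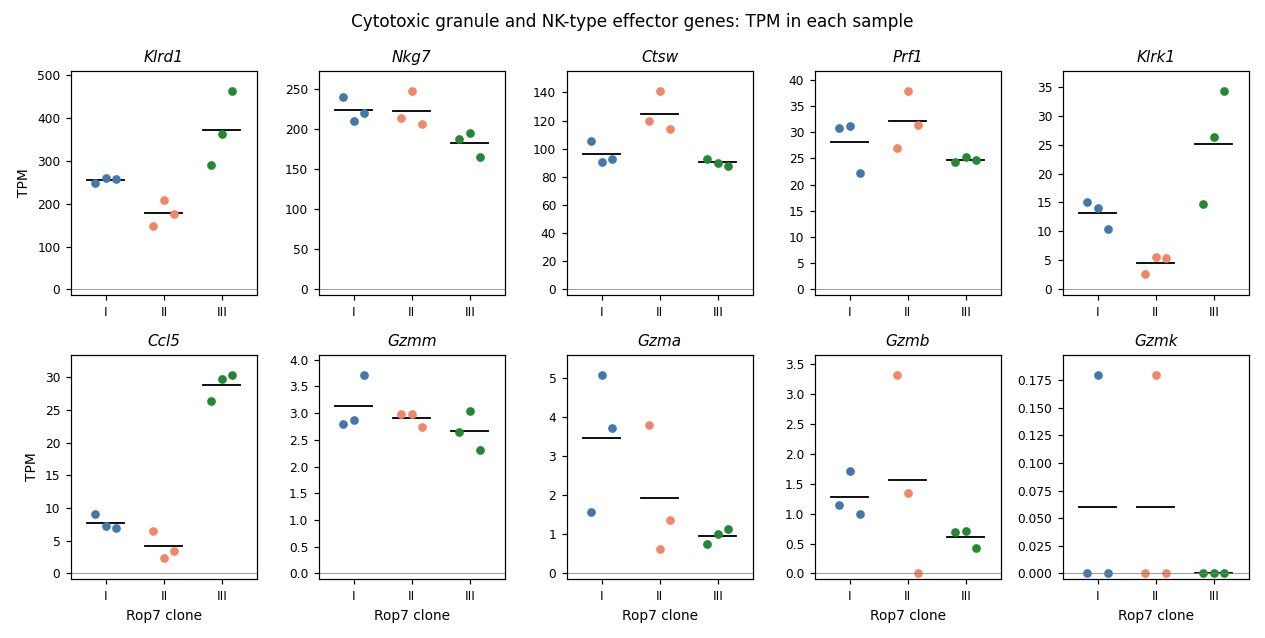
TPM of each of the 10 genes by clone, with 1 panel and its own linear axis per gene, 1 point per sample and a line at the mean of 3. Klrd1, Klrk1 and Ccl5 are highest in Rop7-III and lowest in Rop7-II, and Gzmk does not exceed 0.18 TPM.

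Of the tested genes, the NK-type receptors and Ccl5 differed most between Rop7-III and Rop7-II. Between Rop7-III and Rop7-II, 4 of the 9 genes with enough signal to be tested passed an adjusted p under 0.01 in limma, which were Ccl5, Klrk1 and Klrd1, higher in Rop7-III, and Ctsw, lower in Rop7-III. Ccl5, Klrk1 and Klrd1 also differed at least 2-fold. Over all 12115 genes tested, 12.3% passed the same limit between these clones, 6.39% higher and 5.89% lower in Rop7-III, and 1.7% also differed at least 2-fold. The median log2 difference was -0.28 over the 9 genes and -0.02 over all genes tested. Between Rop7-III and Rop7-I only Ccl5 passed, against 4.85% of all genes (2.58% higher, 2.28% lower and 1.06% with a 2-fold difference), with medians of -0.16 for the 9 genes and 0.00 for all genes. Between Rop7-I and Rop7-II none of the 9 passed in limma, whereas 4 had an unadjusted p under 0.05, as did 32.1% of all genes tested. At the adjusted limit, 7.53% of all genes passed in this pair, 3.67% higher and 3.85% lower in Rop7-I, and 0.949% with a 2-fold difference. The medians were 0.08 and -0.01. The 3 samples of one clone lay wholly above or below those of the other for 6 of the 9 genes between Rop7-III and Rop7-II, 5 between Rop7-III and Rop7-I and 4 between Rop7-I and Rop7-II, and for 40.7%, 38.2% and 35% of all genes tested in the same pairs. The comparisons share samples and are not independent of each other.

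**Figure D3:**
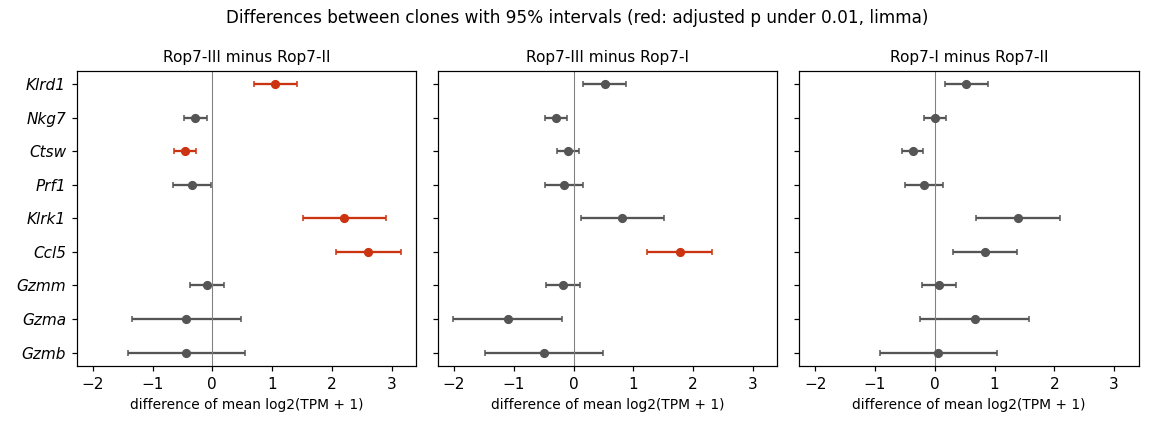
Difference in log2(TPM + 1) for the 9 tested genes in the 3 pairs of clones, with points for the limma estimate and bars for its 95% confidence interval. Ccl5, Klrk1 and Klrd1 lie to the right of 0 in Rop7-III minus Rop7-II, at 2.61, 2.21 and 1.05, and the intervals of the granzymes in that pair include 0.

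Ccl5, a chemokine that attracts T cells, monocytes and NK cells, separated Rop7-III from both other clones. It had 26.39, 29.64 and 30.36 TPM in the Rop7-III samples, 9.03, 7.28 and 6.92 TPM in those of Rop7-I and 6.51, 2.42 and 3.48 TPM in those of Rop7-II. No Rop7-III sample overlapped with another clone, and the lowest Rop7-I sample was above the highest Rop7-II sample by a small margin. The mean of 28.8 ± 2.12 TPM in Rop7-III (SD, n = 3) was 6.96 times that of Rop7-II, 4.14 ± 2.12 TPM, and 3.72 times that of Rop7-I, 7.74 ± 1.13 TPM. On the log2(TPM + 1) scale, where the added TPM understates differences of low genes, Rop7-III exceeded Rop7-II by 2.61 (95% confidence interval 2.07 to 3.15, limma adjusted p = 8.99e-05), which ranked 21 among all genes tested by size. Rop7-III exceeded Rop7-I by 1.77 (1.24 to 2.31, adjusted p = 0.00174). Leaving out 1 sample at a time took the second of these to an adjusted p of up to 0.0120, just over the limit, without Rop7-I replicate 2 (0.0111), Rop7-III replicate 2 (0.0120) or Rop7-III replicate 3 (0.0120). Rop7-I and Rop7-II differed by 0.84 (0.30 to 1.38, adjusted p = 0.0403). Without the B cell marker-rich Rop7-II replicate 1, which had the highest Ccl5 of its clone, that difference was 1.15 with an adjusted p of 0.00132, and the one between Rop7-III and Rop7-II was 2.93.

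Klrk1, the NKG2D receptor, had 14.78, 26.29 and 34.31 TPM in the Rop7-III samples, 15.14, 14.03 and 10.44 TPM in those of Rop7-I and 2.66, 5.61 and 5.34 TPM in those of Rop7-II. Every Rop7-II sample was below every sample of the other clones, and the lowest Rop7-III sample lay among those of Rop7-I. Rop7-III exceeded Rop7-II by 2.21 (1.51 to 2.91, adjusted p = 0.00106), a ratio of mean TPM of 5.54. The difference without Rop7-II replicate 1 was 1.94 with an adjusted p of 0.00235. Rop7-I exceeded Rop7-II by 1.39, with an adjusted p of 0.0149 (0.70 to 2.09), which missed the limit, and by 1.12 (adjusted p = 0.0332) without that library. Between Rop7-III and Rop7-I the estimate was 0.82 (0.12 to 1.51, adjusted p = 0.119), and the spread among the Rop7-III samples, with an SD of 9.82 TPM, was the largest of the clones.

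Klrd1, encoding CD94, was the most abundant of the 10 transcripts in Rop7-I and Rop7-III, whereas Nkg7 was in all 3 Rop7-II samples. It had 290.96, 363.15 and 463.6 TPM in the Rop7-III samples, 247.35, 260.66 and 257 TPM in those of Rop7-I and 148.49, 208.88 and 176.36 TPM in those of Rop7-II. The clones did not overlap in any pair, and the order was Rop7-III, Rop7-I, Rop7-II. Only the outer difference, 1.05 (0.69 to 1.41, adjusted p = 0.00162), passed the limit. The steps from Rop7-I to Rop7-III, 0.52 (0.16 to 0.88, adjusted p = 0.0610), and from Rop7-II to Rop7-I, 0.53 (0.17 to 0.89, adjusted p = 0.0485), were of like size and did not. Without Rop7-II replicate 1 the difference between Rop7-III and Rop7-II was 0.93, below 2-fold, with an adjusted p of 0.00460, and without Rop7-III replicate 3 it was 0.88. The step from Rop7-II to Rop7-I without Rop7-II replicate 1 was 0.41 (adjusted p = 0.118). The summed NK markers overlapped between the clones, and most of each sum came from Tyrobp, Fcer1g and Fcgr3, which myeloid cells share. Within Rop7-III, replicate 3 had the most Klrd1 and Klrk1 and also the highest NK sum, 15.7 TPM, whereas Ncr1 did not exceed 0.13 TPM in that clone. The part of NK cells in these values was not tested.

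Klrd1 and Klrk1 lie near each other in the NK gene complex on chromosome 6, at chr6:129591782-129598775 on the plus strand and chr6:129610323-129623864 on the minus strand (GRCm38), 11.5 kb apart. Their levels moved together over the 9 samples, with a Pearson's r of 0.97 on log2(TPM + 1). In Rop7-II and Rop7-III both genes ordered the 3 samples the same way, and in Rop7-I they did not. Of the 14 tested neighbours within 1 Mb of Klrd1, the only one besides Klrk1 to pass between Rop7-III and Rop7-II was Clec2d, a lectin-like ligand of an NK receptor, named after its values were seen. Clec2d averaged 159 TPM in Rop7-III against 117 TPM in Rop7-II, a log2 difference of 0.44 with an adjusted p of 1.97e-04, and of 0.49 without Rop7-II replicate 1. The remaining neighbours did not pass, and the early activation marker Cd69 had 0.39 with an adjusted p of 0.0645.

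Both granule-associated genes were abundant, and Ctsw was lower in the Rop7-III than in the Rop7-II clone. Ctsw, a cathepsin-like protein of cytotoxic lymphocytes, had 119.52, 141.23 and 114.05 TPM in the Rop7-II samples, 105.56, 90.27 and 92.7 TPM in those of Rop7-I and 92.77, 90.16 and 87.93 TPM in those of Rop7-III. All Rop7-II samples were above all others, and those of Rop7-I and Rop7-III overlapped. The log2 difference of Rop7-III from Rop7-II was -0.46 (-0.64 to -0.28, adjusted p = 0.00363), less than 2-fold. This call depended on single samples, as the adjusted p was 0.0137, 0.0164 and 0.0180 without Rop7-III replicate 1, 2 and 3. Without Rop7-II replicate 1 it was 0.00680. The Rop7-I minus Rop7-II difference of -0.37 (-0.55 to -0.19) had an adjusted p of 0.0139, or -0.40 and 0.0206 without Rop7-II replicate 1, and Rop7-III minus Rop7-I was -0.09 (-0.27 to 0.10, adjusted p = 0.528).

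Nkg7, a membrane protein of cytotoxic granules, had 239.89, 210.8 and 220.91 TPM in the Rop7-I samples, 214.55, 248.44 and 206.29 TPM in those of Rop7-II and 187.51, 195.98 and 166.09 TPM in those of Rop7-III. Each Rop7-III sample was below each sample of the other clones, by a margin smaller than the range within a clone. The log2 difference of Rop7-III was -0.28 from Rop7-II (-0.47 to -0.10, adjusted p = 0.0348) and -0.29 from Rop7-I (-0.47 to -0.10, adjusted p = 0.0488), neither under the limit. The first was -0.31 (adjusted p = 0.0476) without Rop7-II replicate 1. Rop7-I and Rop7-II differed by 0.01, with an interval from -0.18 to 0.19.

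Prf1, encoding perforin, had 30.85, 31.15 and 22.25 TPM in the Rop7-I samples, 26.95, 37.93 and 31.3 TPM in those of Rop7-II and 24.26, 25.26 and 24.75 TPM in those of Rop7-III. The Rop7-III samples were close together and below all Rop7-II samples, and the Rop7-I samples overlapped with both. No pair passed the limit. Rop7-III minus Rop7-II was -0.35 (-0.66 to -0.03, adjusted p = 0.104), Rop7-III minus Rop7-I was -0.16 (-0.48 to 0.16, adjusted p = 0.502) and Rop7-I minus Rop7-II was -0.19 with an adjusted p of 0.406. The first of these was -0.46 (adjusted p = 0.0459) and the last -0.30 (adjusted p = 0.175) without Rop7-II replicate 1.

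The granzymes showed no difference that passed the limit in any pair. Gzmm, granzyme M, was the most even, with 2.8, 2.88 and 3.72 TPM in the Rop7-I samples, 2.98, 2.98 and 2.75 TPM in those of Rop7-II and 2.65, 3.04 and 2.31 TPM in those of Rop7-III. Its log2 differences were between -0.17 and 0.08, and the interval of Rop7-III minus Rop7-II was -0.38 to 0.19. Gzma, granzyme A, varied within 2 of the clones, with 1.57, 5.09 and 3.73 TPM in the Rop7-I samples, 3.81, 0.63 and 1.36 TPM in those of Rop7-II and 0.76, 1 and 1.14 TPM in those of Rop7-III. All Rop7-III samples were below all Rop7-I samples, a log2 difference of -1.10 with a wide interval (-2.01 to -0.19, adjusted p = 0.111). Gzmb, granzyme B, had 1.14, 1.71 and 0.99 TPM in the Rop7-I samples, 3.32, 1.35 and 0 TPM in those of Rop7-II and 0.7, 0.71 and 0.42 TPM in those of Rop7-III. Rop7-II held both the highest and the lowest sample, and Rop7-III lay wholly below Rop7-I, with a log2 difference of -0.49 (-1.47 to 0.49, adjusted p = 0.501). Gzma and Gzmb were each highest in their clone in Rop7-II replicate 1, the library rich in B cell and myeloid markers. That library also had the highest summed NK markers, 92.4 TPM, and the highest Ncr1, 1.19 TPM against 0 in the other 2 Rop7-II samples, and the part of these cells in the granzyme values was not tested. Without that library Rop7-III minus Rop7-II moved from -0.43 to 0.00 for Gzma and from -0.43 to 0.07 for Gzmb. Within Rop7-I, Gzma ordered the samples as the summed B cell markers did (423, 1106 and 819 TPM), and Gzmb was also highest in replicate 2. The summed NK markers of these samples had another order, 15.5, 21.7 and 30.4 TPM. The part of other cells in the granzyme differences between Rop7-III and Rop7-I was not tested. Gzmk, granzyme K, had 0.18 TPM in 1 Rop7-I and 1 Rop7-II sample and was listed at 0 in the other 7, too low for the fit. An exact permutation test gave p = 1 in every pair, where the smallest p possible is 0.1. The other granzymes Gzmc, Gzmd, Gzme, Gzmf, Gzmg and Gzmn were listed at 0 in all 9 samples.

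Sequence around the start of transcription was examined for T-box and RUNX core motifs, the letters bound by Eomes and T-bet and by Runx3, factors known for driving cytotoxic genes. RefSeq windows on GRCm38.p6 from 250 bases before to 50 bases after a start were held for 7 of the 10 genes, in 8 windows, with no entry for Klrd1, Ctsw and Ccl5. On either strand, GGTGTGA (T-box core) was in 3 of the 8 windows and in 3.98% of all 32851 windows, and TGTGGT (RUNX core) was in 6 of 8 and in 16.8% of all. Matches of the motifs may overlap and were counted separately. A match describes letters and not binding, which was not measured. Windows are printed 5′ to 3′ with the motif letters in capitals (either strand), for Klrk1, whose level differed between clones, for the abundant Nkg7, which holds both motifs, and for Gzmb, which holds 2 RUNX cores and was barely transcribed.
Klrk1, chr6:129623815-129624114, minus strand: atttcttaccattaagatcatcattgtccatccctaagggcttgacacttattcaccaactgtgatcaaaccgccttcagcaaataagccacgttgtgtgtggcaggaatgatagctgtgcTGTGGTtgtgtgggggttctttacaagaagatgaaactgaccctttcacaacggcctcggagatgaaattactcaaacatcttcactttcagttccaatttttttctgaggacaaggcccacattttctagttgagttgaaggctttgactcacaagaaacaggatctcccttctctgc
Nkg7, chr7:43436888-43437187, plus strand: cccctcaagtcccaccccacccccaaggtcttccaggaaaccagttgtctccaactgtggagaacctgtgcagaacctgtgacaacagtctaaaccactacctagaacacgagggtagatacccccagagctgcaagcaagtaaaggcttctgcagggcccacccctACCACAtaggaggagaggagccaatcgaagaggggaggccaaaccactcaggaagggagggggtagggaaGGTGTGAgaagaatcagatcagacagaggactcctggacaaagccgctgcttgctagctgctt
Gzmb, chr14:56262285-56262584, minus strand: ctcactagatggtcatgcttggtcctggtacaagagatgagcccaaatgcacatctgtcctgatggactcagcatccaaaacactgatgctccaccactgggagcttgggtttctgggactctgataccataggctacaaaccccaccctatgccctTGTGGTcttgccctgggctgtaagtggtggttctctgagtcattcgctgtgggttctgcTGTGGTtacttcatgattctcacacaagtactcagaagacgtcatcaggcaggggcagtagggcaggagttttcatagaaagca
The RUNX core began 129 bases before the RefSeq start in Klrk1, 83 in Nkg7 and 93 and 34 in Gzmb, and the T-box core of Nkg7 began 13 bases before it. Starts in GENCODE differ for 2 of these genes. That of Nkg7 is at 43437073, so the T-box core lies inside the GENCODE span, and that of Gzmb is at 56262260, outside its window. Whether these motifs bear on the level of any of the genes was not tested.

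Partner chains and further effector genes were described from lists that were chosen with earlier results of these data known. Among 35 other NK-type receptors and signalling partners, 13 had enough signal to be tested. None passed between Rop7-III and Rop7-II in limma (5 with an unadjusted p under 0.05, against 37.8% of all genes) or between Rop7-I and Rop7-II (2, against 32.1%), and Cd226, an adhesion receptor that costimulates killing, was lower in Rop7-III than in Rop7-I, at 127 against 155 TPM (log2 difference -0.28, adjusted p = 0.00680). Klrc1, the NKG2A chain that pairs with CD94, had 0.51, 0.49 and 0.91 TPM in the Rop7-I samples, 0.09, 0 and 0.16 TPM in those of Rop7-II and 0.26, 0.23 and 0.42 TPM in those of Rop7-III. Klrd1 was thus far more abundant than its partner in every sample, and Klrc1 was too low for the fit. Klrc2 reached 0.66 TPM and Klrc3 0.83 TPM at most. Hcst, the DAP10 adaptor of NKG2D, was at 130.81 TPM or more in every sample, and its difference of 0.25 between Rop7-III and Rop7-II missed the limit (adjusted p = 0.0121). Tyrobp, the DAP12 adaptor that myeloid and NK cells also express, was 2.13 to 5.81 TPM in Rop7-III and reached 42.82 TPM in Rop7-II replicate 1, and its difference of -2.06 did not pass (adjusted p = 0.0421). The difference of Tyrobp without Rop7-II replicate 1 was -1.38 (adjusted p = 0.0955) and that of Hcst 0.21 (adjusted p = 0.0324), and Crtam, a receptor of activated cytotoxic cells, passed as lower in Rop7-III (-0.65 against Rop7-II, adjusted p = 0.00569).

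Genes of the granule matrix, of protease processing and of granzyme inhibition were all tested, 11 of 11. Between Rop7-III and Rop7-II, 3 passed as higher in Rop7-III and 2 as lower, against 6.39% and 5.89% of all genes. The median log2 difference was 0.17. Higher were Srgn, the proteoglycan that packs granule content, at 405 against 310 TPM (0.38, adjusted p = 1.46e-04), Ctsl, a lysosomal protease, at 48.4 against 27.6 TPM (0.79, adjusted p = 1.41e-04), and the sorting receptor Igf2r. Lower were the cathepsin inhibitor Cst7 and the sorting receptor M6pr, the latter at 138 against 156 TPM (-0.18, adjusted p = 0.00177). Between Rop7-III and Rop7-I, Ctsl and Serpinb6a were higher in Rop7-III and none was lower. Between Rop7-I and Rop7-II, Srgn and the serpin Serpinb6b were higher in Rop7-I and none was lower. Serpinb6b averaged 10.7 TPM in Rop7-I against 3.67 TPM in Rop7-II, with a log2 difference of 1.34 (adjusted p = 6.14e-04). The medians in these pairs were 0.00 and 0.17. Without Rop7-II replicate 1, Igf2r (0.20 after 0.22, adjusted p = 0.0154) and Cst7 (-0.54 after -0.61, adjusted p = 0.0117) missed the limit between Rop7-III and Rop7-II with differences of like size. Serpinb6b passed in that pair (0.74, adjusted p = 0.00679), and the lysosomal membrane protein Lamp1 also passed between Rop7-I and Rop7-II (0.31, adjusted p = 0.00139).

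Of 16 genes for granule transport and exocytosis, 15 were tested and none passed as higher in Rop7-III in either pair. Lyst, a regulator of lysosome-related organelles, averaged 88.9 TPM in Rop7-III against 142 TPM in Rop7-II, a difference of -0.66 (adjusted p = 3.02e-04). Sytl3, a synaptotagmin-like protein, had 0.640 TPM in the Rop7-III samples, 1.23 TPM in those of Rop7-I and 3.69 TPM in those of Rop7-II. It was below Rop7-II in Rop7-III (-1.52, adjusted p = 9.76e-04) and in Rop7-I (-1.08, adjusted p = 0.00806). No other gene of the list passed against Rop7-II. None passed between Rop7-III and Rop7-I, where 6 had an unadjusted p under 0.05, against 28% of all genes. The list's medians were -0.05, -0.02 and -0.05 in the order Rop7-III minus Rop7-II, Rop7-III minus Rop7-I and Rop7-I minus Rop7-II. Without Rop7-II replicate 1 both genes passed between Rop7-III and Rop7-II, and Sytl3 between Rop7-I and Rop7-II did not (-1.04, adjusted p = 0.0185).

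Among 12 death ligands, effector cytokines and chemokines, 8 were tested. Between Rop7-III and Rop7-II, the lymphotoxins Lta and Ltb passed as lower in Rop7-III, as did 5.89% of all genes. The median of the 8 genes was -0.24. Xcl1, a chemokine for cross-presenting dendritic cells, had 1.84, 1.21 and 3.31 TPM in Rop7-III, 0.3 TPM in 1 Rop7-I sample and was listed at 0 in the other 2 Rop7-I samples and in all Rop7-II samples. Xcl1 exceeded 1 TPM, and so entered the fit, only through Rop7-III, the clone where it was high, so its limma values (adjusted p = 0.00212 against Rop7-II and 0.00642 against Rop7-I) are given as a description. Lta averaged 4.38 TPM in Rop7-III against 12.3 TPM in Rop7-II (-1.27, adjusted p = 0.00272). Ltb, far more abundant, averaged 1396 TPM against 1710 TPM in the same clones (-0.29, adjusted p = 2.16e-04), and was also lower in Rop7-I than in the Rop7-II clone (-0.23, adjusted p = 0.00118). Apart from Xcl1, no gene of this list passed between Rop7-III and Rop7-I, where the median was -0.13. Ltb was the 1 gene that passed between Rop7-I and Rop7-II, where the median was -0.27. Ifng, the hallmark cytokine of cytotoxic T cells, did not exceed 0.16 TPM and Fasl did not exceed 0.37 TPM. Without Rop7-II replicate 1, Lta and Ltb passed in the same pairs as before, and the median between Rop7-I and Rop7-II was 0.18.

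Of 16 regulators of effector genes, 15 were in the table and 14 tested. Between Rop7-III and Rop7-II, Eomes, Stat4 and Ikzf2 were higher in Rop7-III and Id2 was lower, with a median of -0.12. Of all genes, 6.39% passed as higher and 5.89% as lower in this pair. Eomes, the T-box factor of memory and cytotoxic CD8 T cells, had 12.35, 17.46 and 12.59 TPM in the Rop7-I samples, 1.49, 2.45 and 3.07 TPM in those of Rop7-II and 7.62, 7.55 and 5.3 TPM in those of Rop7-III. Its order was therefore Rop7-I, Rop7-III, Rop7-II without overlap, which is not the order of Ccl5, Klrk1 and Klrd1. Eomes was higher than in Rop7-II by 2.19 in Rop7-I (adjusted p = 1.88e-04) and by 1.24 in Rop7-III (adjusted p = 0.00262), and the difference of -0.95 between Rop7-III and Rop7-I missed the limit (adjusted p = 0.0174). Stat4, which relays IL-12 signals, had 202.98, 196.22 and 201.25 TPM in the Rop7-III samples, 167.52, 188.35 and 171.75 TPM in those of Rop7-I and 90.23, 114.11 and 109.74 TPM in those of Rop7-II. It exceeded Rop7-II in Rop7-III (0.94, adjusted p = 6.63e-05) and in Rop7-I (0.75, adjusted p = 3.78e-04). Ikzf2, or Helios, averaged 7.29 TPM in Rop7-III against 4.23 TPM in Rop7-II (0.66, adjusted p = 8.00e-04), and Id2 averaged 61.6 and 88.6 TPM (-0.52, adjusted p = 9.17e-04). Foxo1 was the 1 regulator that passed between Rop7-III and Rop7-I, higher in Rop7-III, with a median of -0.15, and Eomes and Stat4 were the 2 between Rop7-I and Rop7-II, with a median of 0.01. Without Rop7-II replicate 1 the same 4 genes passed between Rop7-III and Rop7-II, with Eomes at 1.05 and Stat4 at 0.83, and Foxo1 passed as lower in Rop7-I than Rop7-II (-0.29, adjusted p = 0.00141). Tbx21, encoding T-bet, did not exceed 0.28 TPM in any sample.

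**Figure D4:**
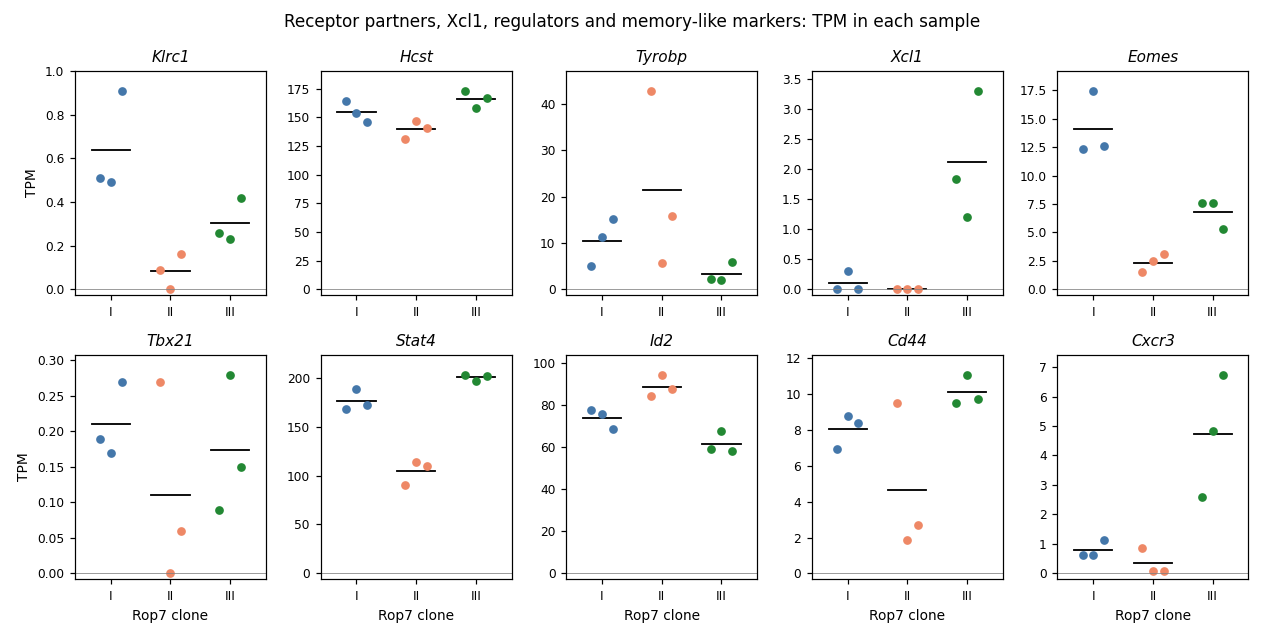
TPM of receptor partners, Xcl1, regulators and memory-like markers by clone, 1 panel and its own linear axis per gene, 1 point per sample and a line at the mean of 3. Eomes and Stat4 are lowest in Rop7-II, Xcl1 is above 1 TPM in Rop7-III alone, and Klrc1 and Tbx21 stay below 1 TPM.

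Of 12 markers of memory-like CD8 T cells, a list that shares Eomes, Tbx21 and Fasl with those above, 10 were tested. Between Rop7-III and Rop7-II, 4 were higher in Rop7-III and none lower, against 6.39% and 5.89% of all genes. Between Rop7-I and Rop7-II, 2 were higher in Rop7-I and none lower, against 3.67% and 3.85%. The median log2 differences were 0.99 and 0.51 in these pairs, and 0.23 between Rop7-III and Rop7-I. In limma none passed between Rop7-III and Rop7-I, where 4 had an unadjusted p under 0.05, against 28% of all genes. Besides Eomes, the 4 were the chemokine receptor Cxcr3 (2.07, adjusted p = 0.00151), the IL-18 receptor chain Il18rap (1.34, adjusted p = 0.00213) and the interferon receptor chain Ifngr1 (1.00, adjusted p = 1.38e-04). Ifngr1 was also the other gene of the 2 in Rop7-I (1.08, adjusted p = 1.42e-04). Cd44 had 9.52, 11.09 and 9.73 TPM in the Rop7-III samples, 6.95, 8.78 and 8.42 TPM in those of Rop7-I and 9.51, 1.85 and 2.68 TPM in those of Rop7-II. Its high Rop7-II value was that of replicate 1, the library with high B cell and myeloid markers. Without it Cd44 passed (1.78 between Rop7-III and Rop7-II, 1.48 between Rop7-I and Rop7-II), as did Ly6c1 (1.55 and 1.27), so that 6 and 4 markers were higher than in Rop7-II and none lower. The share of all genes that passed without this library was not computed.

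Over the 9 samples, Klrd1 and Klrk1 each had a Pearson's r with Ccl5 of 0.81 and 0.80 on log2(TPM + 1). Ctsw ran the other way, with r of -0.75 with Klrd1, -0.79 with Klrk1 and -0.78 with Ccl5. Nkg7 and Ccl5 had r = -0.78, Prf1 and Ctsw 0.74, and Gzma and Gzmb 0.56. Samples of a clone share its level and each library its scaling, so the coefficients are given as a description. By the same measure, the tested genes nearest to Ccl5 were Slc8b1 (0.985), Ltk (0.982) and Ptgfrn (0.981). Nearest to Klrk1 were Prkca (0.987), D130020L05Rik (0.987) and Mfge8 (0.974), and nearest to Klrd1 were D130020L05Rik (0.987), Ppm1b (0.974) and Klrk1 itself (0.971). Ctsw was nearest to Nmnat3 (0.971), Tagln2 (0.958) and Sart1 (0.950), a set that shares no gene with the others.

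The 10 genes are protein coding and, apart from 3 pairs, lie on different chromosomes of GRCm38. Besides Klrd1 and Klrk1, Gzma (chr13:113093825-113100981) and Gzmk (chr13:113171608-113225908) lie close together on chromosome 13, and Gzmm (chr10:79689020-79695261) and Prf1 (chr10:61297833-61304680) are both on chromosome 10. Gzma was above 0 in every sample and its neighbour Gzmk in 2. Ccl5 is at chr11:83525778-83530518, Nkg7 at chr7:43437073-43438249, Ctsw at chr19:5465043-5468507 and Gzmb at chr14:56258838-56262260. No stretch of 100 bases, the read length, of any of the 10 genes' transcripts occurred in a transcript of another annotated gene, so reads of the related granzymes were not shared at full identity. The libraries did not mark strand, and reads of overlapping genes could not be separated.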

How the data were processed

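Sorted CD8 T cells of 3 Rop7 lines (3 samples each, by their labels) were sequenced with single-end reads from 200 ng of RNA. The authors aligned and counted the reads with RSEM 1.2.11 on RefSeq genes of mm10 and deposited TPM per gene and sample. DESeq2 1.8.1, which they applied to counts, does not apply to TPM. Deposited TPM hold no depth, so no counting interval was computed, and precision is that of 3 samples.

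The 24060 genes were analysed in R 4.3.3 on the log2(TPM + 1) scale. Those that never exceeded 1 TPM were left out, 7126 of which were at 0 throughout. The remaining 12115 were fitted in limma 3.58.1 (trend, all 9 samples, two-sided) and adjusted by Benjamini-Hochberg within each pair, with a limit of 0.01. All adjusted p are from limma. P values measure the spread between samples labelled biological replicates. Filtered members were compared by exact permutation. Ratios are of mean TPM, and intervals are 95% confidence intervals from the fit.

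The 10 members and all lists were chosen with earlier results of these data known. From each list the text names genes with an adjusted p under 0.01 and 2-fold, and up to 3 more with the smallest adjusted p. For each member that passed, the 3 genes with the highest r were named. Igf2r, Cst7, Serpinb6a, Foxo1, Clec2d, Cd69 and low or marker genes outside this rule were named after their values were seen, and the list results without Rop7-II replicate 1 were added after seeing the data. Alternatives were pseudocounts of 0.1 and 0.5 TPM, other filters, common median, quantile normalization, no trend, sample weights, only the clones compared, a replicate block, each sample left out and a limit of 0.05. Same-numbered samples did not deviate together and were not paired. Positions are from GENCODE and motif windows from RefSeq.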

Additional observations from a re-analysis of the deposited data

How the results depend on the processing

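The number of the 9 tested genes that passed was 4 for Rop7-III against Rop7-II, 1 for Rop7-III against Rop7-I and 0 for Rop7-I against Rop7-II. There were 2 in the first pair with only the clones compared (Klrd1 at an adjusted p of 0.0131 and Ctsw at 0.0113 did not pass), and 1 in the last pair with sample weights (Ccl5, 0.99, adjusted p = 0.00946). At a limit of 0.05, passed by 25.1%, 13.1% and 17.9% of all genes in these pairs, the numbers were 5, 2 and 4, of which 3, 1 and 1 also differed 2-fold (2.03%, 1.3% and 1.21% of all genes). Leaving out each sample gave 3 to 4, 0 to 1 and 0 to 1 genes, and 2 to 3, 0 to 1 and 0 to 1 with a 2-fold difference. The shares of all genes that passed in these fits were not computed. In the last pair the 1 was Ccl5 without Rop7-II replicate 1 or Klrk1 (adjusted p = 0.00863) without Rop7-III replicate 1. Ctsw between Rop7-III and Rop7-II also missed the limit without the trend (adjusted p = 0.0107). Some differences changed sign, those of Nkg7 and Gzmm near 0 and those of Gzmb over a wider range. Nkg7 between Rop7-I and Rop7-II was -0.0062 with sample weights and -0.046 to 0.087 with a sample left out (-0.043, -0.018 and -0.046 without Rop7-I replicate 1, Rop7-II replicate 1 and Rop7-II replicate 3). Gzmb was -0.50 to 0.56 (-0.069 without Rop7-I replicate 2, -0.50 without Rop7-II replicate 3) and Gzmm -0.023 to 0.13 (-0.023 without Rop7-I replicate 3). Gzmb between Rop7-III and Rop7-II was -0.43 in the main fit and -0.99 to 0.065 with a sample left out (0.065 without Rop7-II replicate 1). The cause was not tested.

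Over all alternatives, Ccl5 between Rop7-III and Rop7-II was 2.36 to 2.93 (adjusted p 7.65e-06 to 0.00203) and Klrk1 1.94 to 2.54 (7.37e-04 to 0.00841). Of 534 values under other settings, 508 kept their direction and side of the limit, 9 lost the limit, 9 passed it and 8 changed sign. With the replicate number as a block, 4, 1 and 0 genes passed. The 9 correlations of same-numbered samples were -0.39 to 0.11, with 1 over 0.1, so the numbers gave no pairing. Requiring 1 TPM in every sample left 7 of the genes, and no filter kept all 10. Only a typical depth is stated and no counts are held. The reads behind values near 0 TPM for Gzma, Gzmb and Gzmk are therefore not known, and such values may be noise of few reads.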
